A study of Zea mays with 4 samples.

Results

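Pairs of nearby peak centres from a duplicate ChIP-seq experiment on the maize transcription factor P1 are described here. A pair is a peak of the first duplicate (list 1) on chromosomes 1 to 10 whose midpoint lay within 250 bp of the midpoint of a peak of the second duplicate (list 2), together with that list 2 peak. There were 387 such pairs. Their 387 list 1 peaks were 1.9% of the 20373 list 1 peaks on these chromosomes, and their 387 list 2 peaks were 2.64% of the 14647 in list 2. The pairs were chosen by the measured distance between centres, so these counts and the distances are a description and carry no test. Every pair was exclusive: 0 list 1 peaks and 0 list 2 peaks had more than 1 partner within the limit.

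The 4 libraries came from pericarp, the maternal tissue around the kernel, at 14 days after pollination by their age labels, and all were precipitated with polyclonal antibodies to P1. The growth text of 3 of the 4 libraries, P1-rr replicate 1 being the exception, also names a later collection time. The P1-rr plants express P1 in this tissue and the P1-ww plants do not, with 2 libraries for each genotype. Both are near-isogenic lines made by 6 backcrosses of the stock 65-CFS-305 to the inbred A619 and 3 selfings. The donor stock carries P1-rr and the related gene P2, while A619 has a non-functional P1 locus and lacks P2. The P1-rr line keeps 2 donor segments, 1 of them at 35 to 66 Mb of chromosome 1 and the other at 89 to 102 Mb of chromosome 6, in positions of build AGPv2. List 1 compares P1-rr with P1-ww in replicate 1 and list 2 does so in replicate 2. The protocol names biological duplicates, but each list is a single comparison with no value per library. Read depth is unknown here, and the sources used do not say which build the lists follow.

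P1 is an R2R3-MYB protein, a member of a family of plant transcription factors that bind short DNA motifs through repeated MYB domains. In maize pericarp and cob glumes it switches on flavonoid genes such as c2, which encodes chalcone synthase, and a1, which encodes dihydroflavonol reductase, and the products give rise to red phlobaphene pigments. In ChIP-seq, fragments held by the protein are sequenced, and a peak caller marks places where the P1-rr library has more reads than the P1-ww control. A site held in both duplicates would give a list 1 centre and a list 2 centre close to each other, which is why the distance between centres was used to form the pairs.

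Distances within the pairs leaned towards 0. The median distance was 96 bp (interquartile range 46 to 160.25). In steps of 50 bp outwards from 0, there were 104, 96, 73, 58 and 56 pairs. The innermost step thus held 26.9% of pairs (95% Wilson interval 22.7 to 31.5) and the outermost held 14.5% (11.3 to 18.3). Wilson intervals here and below cover the counting of peaks only. The list 2 centre lay at the higher coordinate in 186 pairs, at the lower one in 200 and at the same base in 1, so neither side prevailed. Among all pairings of a list 1 with a list 2 centre, not only the nearest, those within 500 bp numbered 604. The next 500 bp held 348, and each later class of 500 bp out to 5 kb held 198 to 263.

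**Figure D1:**
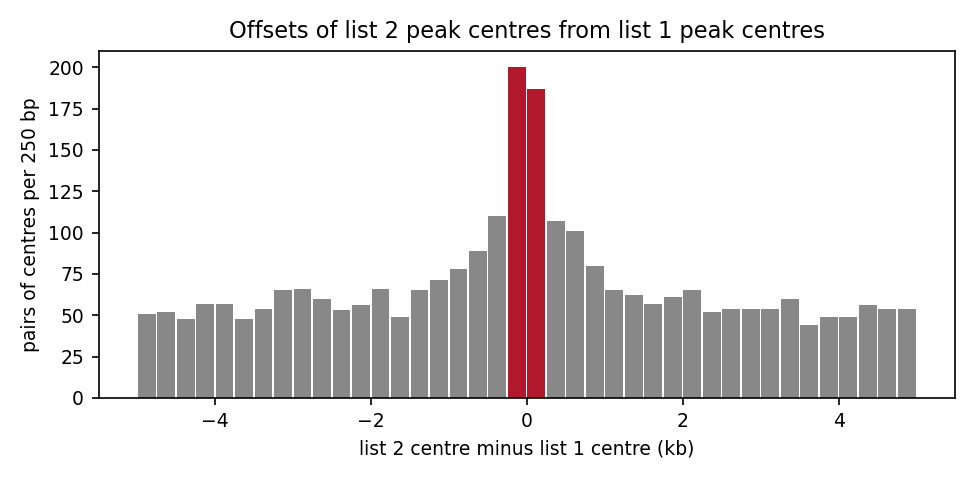
Number of pairings of a list 1 centre with a list 2 centre in classes of 250 bp, against the signed offset in kb (list 2 minus list 1). The 2 red bars, with 200 and 187 pairings, are the pairs described here, and the grey bars are pairings outside the limit.

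The limit of 250 bp does not sit at a break in these distances. The 3 pairs just inside it, on chromosomes 9, 2 and 1, had centres 250, 250 and 248 bp apart. The 3 just outside, on chromosomes 2, 9 and 8, had centres 255, 255.5 and 257 bp apart. The last of these, at 76155071 to 76155699 of chromosome 8, joins a list 1 peak that scored 2379.16 to a list 2 peak that scored 86.76. The score is the authors' own and is compared only within a list. It exceeded the median of its list in both peaks of that pairing.

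Most pairs also overlapped. In 368 of the 387 the peaks had at least 1 bp in common, and the median overlap among these was 200 bp, the full width of a typical list 1 peak. The list 1 peak lay wholly inside the list 2 peak in 185 pairs. The opposite nesting occurred in 2, and 1 of these was the single pair with identical peaks. The other 19 pairs did not touch. Their centres were at least 200 bp apart, their list 2 peaks measured at most 224 bp, and in 15 of them both peaks were 200 bp wide. Together the 2 peaks of a pair spanned a median of 446 bp (200 to 1374 bp), and all 387 spans came to 188 kb.

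The closest pair of each chromosome shows how different the 2 peaks of a well-centred pair could be. On chromosome 8 the pair was identical, at 7966209 to 7966408, and scored 882.38 in list 1 and 111.06 in list 2. On chromosome 3 the peaks at 105064833 to 105065034 had centres 2 bp apart and were both 200 bp wide, with scores of 112.54 and 199.29. On chromosome 2 the pair at 117229203 to 117229412 also joined peaks of 200 bp, 10 bp apart, with scores of 282.63 and 45.83. In the other 7 chromosomes the list 2 peak of the closest pair was the wider one.

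On chromosome 7 a list 2 peak of 940 bp, at 70354706 to 70355645, had its centre 2 bp from that of a 200 bp list 1 peak, with scores of 375.29 in list 1 and 45.64 in list 2. On chromosome 1 the list 2 peak at 103491710 to 103492567 measured 858 bp, its centre lay 4 bp from the list 1 centre, and the scores were 328.46 and 41.12. On chromosome 9, at 71187181 to 71187813, the centres were 1.5 bp apart, and the scores were 237.92 and 90.69. These 3 list 1 peaks therefore sat in the middle of list 2 peaks several times their width. The closest pairs of chromosomes 4, 5, 6 and 10 had list 2 widths of 324, 423, 460 and 540 bp at distances of 7, 5.5, 5 and 5 bp. That of chromosome 5, at 45206733 to 45207155, had the tied list 1 score of 3100 and a list 2 score of 54.

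Width in list 2 differed between paired and distant peaks. Distant peaks are those with no centre of the other list within 5 kb, 17813 in list 1 and 12189 in list 2, and the remaining 2173 and 2071 lay between. Paired list 2 peaks had a median width of 401 bp (95% order-statistic interval 372 to 433) and distant ones of 323 bp (316 to 331), a difference of 78 bp. The paired median was higher on 10 of 10 chromosomes, by 7.5 to 183 bp. Peaks of exactly 200 bp, the smallest width in the list, were 68 of the 387 paired peaks, or 17.6% (14.1 to 21.7). They were 30.8% (30.0 to 31.6) of distant peaks, and this share was lower among paired peaks on 10 of 10 chromosomes. The pairing rule used midpoints and not widths. No test was made, since peaks are not replicates and the lists hold no value per library.

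The share of list 2 peaks that were paired was higher in each wider class. It was 1.55% (1.23 to 1.96) of the 4384 peaks of 200 bp and 2.30% (1.77 to 2.98) of those above 200 and up to 300 bp. It was 2.90% (2.44 to 3.43) up to 500 bp and 3.18% (2.58 to 3.92) up to 700 bp. Above 700 bp it was 6.76% (5.16 to 8.80), with 50 paired of 740. Neighbouring classes up to 700 bp had overlapping intervals, while the interval of the widest class overlapped none of the others. Median list 2 width was also lower at longer distances from list 1. It was 376 bp where the nearest list 1 centre was 250 to 1000 bp away, 345 bp at 1 to 5 kb, and 298 bp beyond 100 kb.

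**Figure D2:**
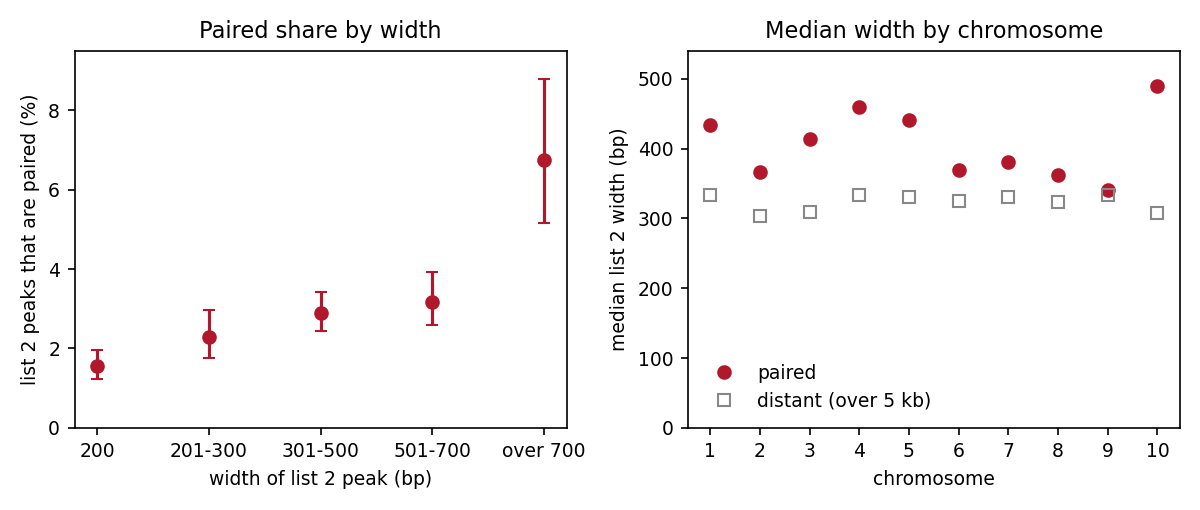
Left, percent of list 2 peaks in each width class (bp) that were paired, with 95% Wilson intervals, from 1.55% at 200 bp to 6.76% above 700 bp. Right, median width in bp of paired (red circles) and distant (open squares) list 2 peaks on each of 10 chromosomes, where every paired median is the higher.

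The widest paired list 2 peaks were on chromosomes 8, 3, 5, 3 and 8. The first, at 78719535 to 78720908 of chromosome 8, measured 1374 bp and scored 83.67. Its list 1 partner of 200 bp, 40 bp from its centre, scored 74.80, one of the lowest of the repeated list 1 values. The next, 1339 bp at 214071100 to 214072438 of chromosome 3, scored 98.27 and also had a partner at 74.80. The other 3 measured 1284, 1262 and 1123 bp, with list 2 scores of 49.48, 76.03 and 70.36 and list 1 scores of 672.49, 375.29 and 936.01. All 5 list 1 partners were 200 bp wide. Of the 75 list 2 peaks above 1000 bp on the 10 chromosomes, 8 were paired.

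Width in list 1 did not separate the classes. Peaks of exactly 200 bp were 95.9% (93.4 to 97.4) of paired list 1 peaks and 95.6% (95.2 to 95.8) of distant ones, and the share was higher among paired peaks on 5 chromosomes and lower on 5. Only 16 paired list 1 peaks were wider, from 202 to 560 bp. The widest, at 236781774 to 236782333 of chromosome 1, scored 303.76 and overlapped an 836 bp list 2 peak by 489 bp. This pair was picked after its values were seen. Across the 387 pairs Spearman's rho between the widths of the 2 peaks was 0.034, a description over pairs that share their libraries. With 371 of the list 1 peaks at exactly 200 bp, this value cannot show whether the widths are related. Centre distance was hardly related to list 2 width (rho of -0.034).

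Scores at or above the median of the list were less frequent among paired than among distant peaks in both lists. In list 1 the paired median was 237.92 (194.5 to 282.63) against 282.63 for distant peaks. The paired median was lower on 7 chromosomes and equal on 3, where both were 282.63. List 1 scores are heavily repeated, and 246 of the 387 paired peaks had 1 of only 7 values, so medians move in steps. Of paired list 1 peaks, 45.7% (40.8 to 50.7) scored at or above the median of their list, against 52.3% (51.5 to 53.0) of distant ones. The list 1 median, 282.63, is itself a repeated score. It was held by 1238 peaks, 28 of them paired, and these are counted in the shares. In 5 classes of list 1 of similar size, from the lowest score upwards, the paired share was 2.26%, 2.10%, 2.18%, 1.44% and 1.40%. The 2 highest classes had Wilson intervals of 1.09 to 1.90 and 1.08 to 1.81, against 1.84 to 2.76 in the lowest class. At the tied score of 3100, 9 of 932 peaks were paired, or 0.966% (0.509 to 1.83), while at 74.80 it was 40 of 1672, or 2.39% (1.76 to 3.24). These were the lowest and highest shares among the commonest list 1 scores, and their intervals overlap. At the other common scores the share ran from 1.00% at 423.01 to 2.28% at 328.46.

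In list 2 the paired median score was 64.51 (60.21 to 67.17) and the distant median 70.24, with the paired median lower on 8 chromosomes and higher on 2. In the same kind of classes of list 2 the paired share was 2.83%, 3.11%, 3.53%, 1.80% and 1.91%. Wider peaks had lower scores in this list: Spearman's rho between width and score was -0.40 over the 387 paired peaks and -0.62 over the distant ones. Among peaks of 200 bp the paired median score was 84.93 (80.32 to 111.47) against 116.93 for distant peaks. In the 3 classes from above 200 to 700 bp it was instead 2.25 to 4.41 higher, and above 700 bp it was 1.77 lower, each within the interval of the paired median. Among the width classes, therefore, the peaks of 200 bp alone had a distant median outside the interval of the paired one. Without the peaks of 200 bp, a setting chosen after seeing the data, the difference of medians was 1.5 in place of -5.73.

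**Figure D3:**
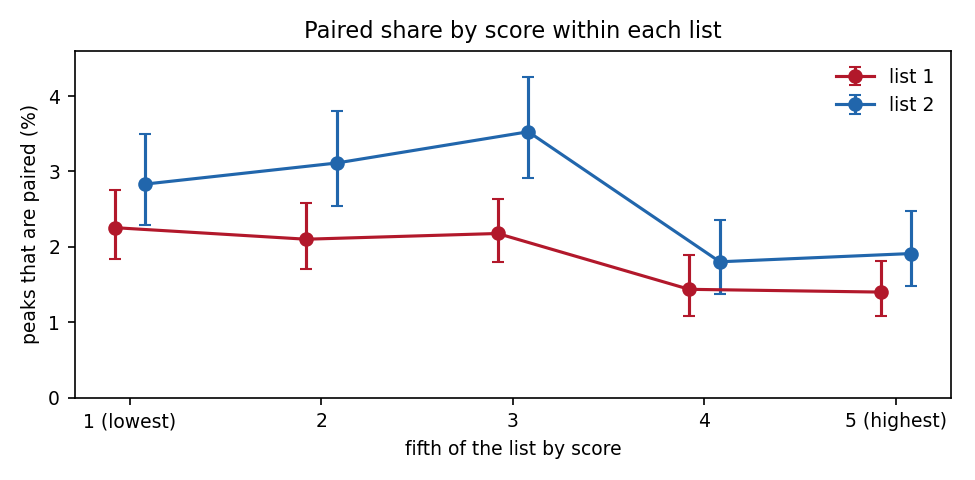
Percent of peaks that were paired in 5 classes of similar size of list 1 (red) and list 2 (blue), ordered by the authors' score within the list, with 95% Wilson intervals. The points of the 2 highest classes of each list lie below its 3 lower ones, at 1.44% and 1.40% in list 1 and 1.80% and 1.91% in list 2. Some of the intervals overlap.

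The score of a list 1 peak said little about that of its partner, with a rho of -0.044 over the pairs. The peak was at or above the median of its list in 177 pairs for list 1 and in 163 for list 2. Both were at or above it in 75 pairs, only the list 1 peak in 102, only the list 2 peak in 88 and neither in 122. Nor was centre distance related to the score in list 1 (-0.046) or in list 2 (0.017). The highest-scoring 10% of list 1 included 26 paired peaks and that of list 2 included 21, each fewer than 10% of the 387 pairs. In both were 4 pairs. In the highest-scoring class of similar size, the paired share was 1.40% in list 1 and 1.91% in list 2. Over all peaks it was 1.9% and 2.64%.

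Of the 5 pairs with the highest list 2 scores, 4 had a list 1 score above the median of list 1 as well. The highest was 573.53, at 75989862 to 75990183 of chromosome 8, and its partner in list 1 scored 570.75. The second, 441.73 at 28479956 to 28480174 of chromosome 3, went with a list 1 score of 2685.01. The third, 387.30 at 28119630 to 28119952 of chromosome 2, had a list 1 score of only 67.74, which stands at 0.753% of that list by rank from the bottom. The fourth, at 168908740 to 168909104 of chromosome 1, scored 364.41 in list 2 and 560.56 in list 1. The fifth, at 18047036 to 18047467 of chromosome 7, scored 299.46 and 621.33. Centre distances in these 5 pairs were 122, 16, 123, 114.5 and 132.5 bp, so 4 of the 5 lay above the median distance of 96 bp.

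The middle of chromosomes held a somewhat larger share of pairs than of distant peaks, but not clearly more than of other list 1 peaks with a list 2 centre up to 50 kb away. Position was taken along the span up to the last peak end in either list. The middle 50% of that span, from 25% to 75%, held 229 paired list 1 peaks, or 59.2% (54.2 to 64.0), and 53.3% (52.6 to 54.1) of distant ones. By distance to the nearest list 2 centre, the share in the middle was 54.9% at 250 to 1000 bp, 56.9% at 1 to 5 kb, 56.5% at 5 to 20 kb and 56.6% at 20 to 50 kb, all within the interval of the pairs. It was 53.8% at 50 to 100 kb and 46.5% (45.0 to 48.0) beyond 100 kb. Set against distant peaks, the paired share was higher on 7 chromosomes and lower on 3, and the difference ran from -4.51 percentage points on chromosome 8 to 19.9 on chromosome 6. Of all list 1 peaks in the middle, 2.09% (1.84 to 2.38) were paired, against 1.68% (1.44 to 1.96) in the outer parts, and these intervals overlap. In steps of 10% of the span, the largest paired share was 15.5% of the pairs (12.2 to 19.4) from 40% to 50%, where 11.5% of distant peaks lay. The outermost steps held 6.98% and 8.79% of the pairs against 8.94% and 8.99% of distant peaks.

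The shift did not extend to the chromosome ends. Within 10 Mb of either end lay 37 paired list 1 peaks, or 9.56% (7.02 to 12.9), and 8.72% (8.32 to 9.15) of distant ones. The direction there was opposite to that of the middle 50%, with overlapping intervals. The median distance to the nearer end was 61.0 Mb (56.4 to 65.1) for paired and 53.4 Mb (52.5 to 54.0) for distant peaks.

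**Figure D4:**
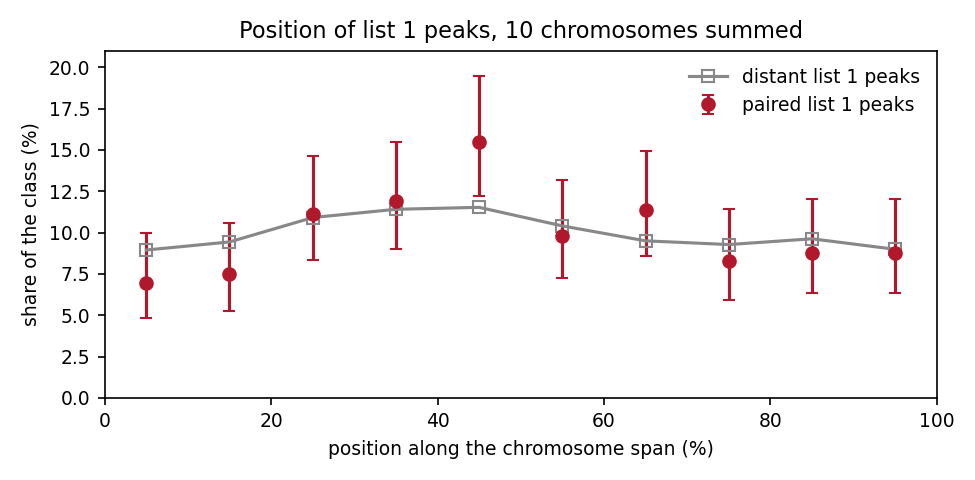
Percent of paired (red circles, 95% Wilson intervals) and of distant (grey squares) list 1 peaks in each 10% of the chromosome span, summed over 10 chromosomes. The paired peaks reach 15.5% from 40% to 50% of the span, where distant peaks stand at 11.5%, and in the other steps the distant value lies within the paired interval.

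Local peak density did not separate paired from distant peaks. Density was counted from 5 to 500 kb on either side of a list 1 centre, which leaves out the partner and the distances that define the classes. Around paired peaks the median was 10.1 list 1 peaks per Mb (10.1 to 11.1, interquartile range 7.07 to 14.1), the same as around distant peaks (10.1, interquartile range 7.07 to 14.1). Means were 10.98 and 10.83 per Mb. The paired median was higher on 3 chromosomes, lower on 3 and equal on 4. For list 2 peaks the medians were 7.07 per Mb in both classes (7.07 to 8.08 around paired peaks), with the paired median higher on 3 chromosomes, lower on 4 and equal on 3. Because the rule asks for a list 2 peak nearby, list 2 density is partly tied to it. Single pairs ranged from 1.01 to 25.3 list 1 peaks and from 0 to 19.2 list 2 peaks per Mb.

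By distance to the nearest list 2 centre, median list 1 density was 10.1 per Mb for the pairs and at 250 to 1000 bp, 11.1 in each class from 1 to 50 kb, 10.1 at 50 to 100 kb and 9.09 beyond 100 kb. Median list 2 density was 9.09 per Mb at 5 to 20 kb and 5.05 beyond 100 kb. These list 2 values are partly fixed by the classes, since a nearest list 2 centre at 5 to 20 kb is itself counted and one beyond 100 kb leaves the nearer part of the window empty. Within the middle 50% of the span the medians for list 1 were 12.1 (10.1 to 12.1) around paired and 11.1 around distant peaks, and in the outer parts 9.09 around both. At shorter range, 70 paired list 1 peaks had another list 1 peak within 5 kb, or 18.1% (14.6 to 22.2), against 15.0% (14.5 to 15.5) of distant ones. For list 2 the shares with another list 2 peak within 5 kb were 11.9% (9.03 to 15.5) and 12.1% (11.5 to 12.7). Both pairs of intervals overlap.

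**Figure D5:**
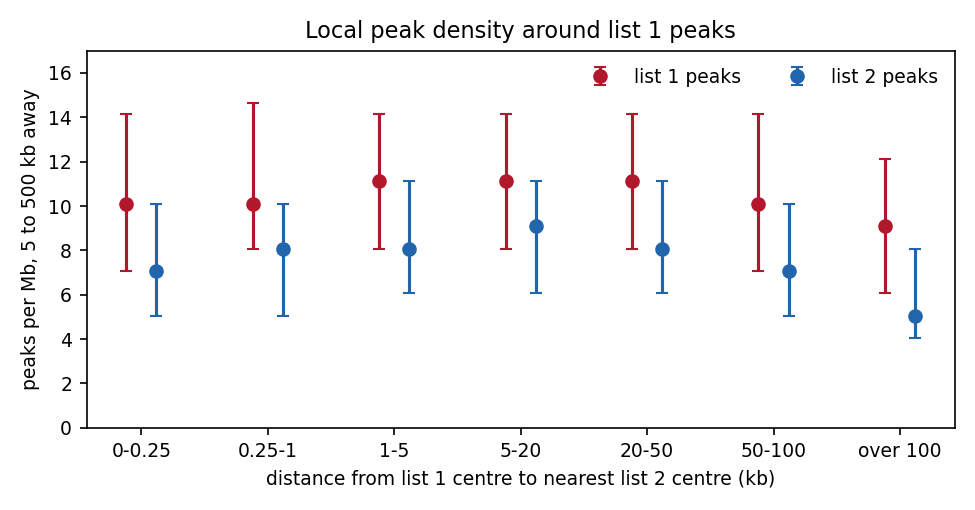
Peaks per Mb from 5 to 500 kb around list 1 peaks, by distance in kb to the nearest list 2 centre, for list 1 (red) and list 2 (blue) peaks. Points are medians and bars interquartile ranges, and the paired class at the left, at 10.1 and 7.07 per Mb, lies below the list 1 median of 11.1 shared by the 3 classes from 1 to 50 kb. List 2 values beyond 5 kb are partly fixed by the distance classes.

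The pairs were spread thinly over all 10 chromosomes. Chromosome 1 held 67, chromosome 5 held 48 and chromosome 9 held 25. As a share of the list 1 peaks of the chromosome, they were fewest on chromosome 7, at 1.59% (1.10 to 2.29), and most frequent on chromosome 1, at 2.33% (1.84 to 2.95), against 1.9% in all. These outermost intervals overlap. Over the summed span of 2058 Mb there was 0.188 pair per Mb, and 350 of 2063 windows of 1 Mb held a pair. A single pair was found in 314 of those windows, 2 in 35 and 3 in 1. The median gap between consecutive pairs was 3.30 Mb (interquartile range 1.37 to 7.26). The longest stretch with none was 32.9 Mb on chromosome 5, and 9 gaps exceeded 20 Mb.

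Few pairs lay close to each other. Only 9 gaps were under 100 kb and 4 under 20 kb. The closest neighbours were on chromosome 5, where the pairs at 83841430 to 83842130 and 83842634 to 83843069 had list 1 centres 0.833 kb apart. Their list 1 scores were 152.6 and 74.80 and their list 2 scores 69.27 and 68.49. On chromosome 2 the pairs at 180041379 to 180041878 and 180043107 to 180043506 were 1.79 kb apart, with list 1 scores of 237.92 and 328.46 and list 2 scores of 109.06 and 84.93. The other 2 neighbours, on chromosomes 4 and 5, were 6.10 and 7.91 kb apart. List 1 scores of these 8 pairs ran from 74.80 to 1723.86.

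At most 3 pairs were found within 1 Mb, which several places reached, and the 3 tightest are given here. The tightest such place was on chromosome 9, where 3 pairs lay within 384 kb, beginning with the closest pair of that chromosome. The others, at 71349494 to 71350142 and 71571280 to 71571690, had list 1 scores of 2932.79 and 112.54 and list 2 scores of 44.13 and 48.44. On chromosome 1, 3 pairs lay within 419 kb, with list 1 scores of 1210.09, 2258.12 and 375.29 and list 2 scores of 43.32, 222.87 and 50.81. On chromosome 3, 3 pairs lay within 519 kb, with list 1 scores of 595.96, 74.80 and 152.6 and list 2 scores of 117.09, 80.32 and 108.93. On chromosome 9, scores of both lists stood on either side of the list median. On chromosome 1 this held for list 2 only, as all 3 list 1 scores were above the median. On chromosome 3 it held for list 1 only, as all 3 list 2 scores were above the median.

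The donor segments, taken at the borders given on AGPv2, held 9 pairs on chromosome 1 (3.19% of the list 1 peaks there, 1.69 to 5.95) and 4 on chromosome 6 (3.2%, 1.25 to 7.94). Both intervals include the 1.9% of all list 1 peaks. Whether the lists follow that build was not tested. The closest pair in the chromosome 1 segment was at 38228304 to 38229019, with centres 7 bp apart and scores of 829.18 in list 1 and 43.32 in list 2. In the chromosome 6 segment it was at 91218607 to 91218937, with centres 82.5 bp apart and scores of 423.01 and 186.19.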

How the data were processed

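Peak names in the deposited lists refer to MACS, and CASAVA 1.4 and Bowtie are named without roles in the submitters' processing notes. Per the labels, tissue was fixed with formaldehyde and each list belongs to 1 P1-rr and 1 P1-ww library, so the authors called peaks per replicate pair. The score is the authors' own value per peak as deposited, on a scale not stated in the files. The sources used here give neither the caller's settings nor a build. The number of value columns left unmapped was 0.

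Starts were taken to be 0-based and are printed 1-based. Midpoints, widths and densities were computed under Python 3.11.15 with pandas 2.3.3 and numpy 2.4.6. Wilson and order-statistic intervals at 95% came from scipy 1.17.1, figures from matplotlib 3.10.9, and bedtools 2.31.1 also counted 387 pairs. Planted pairs were recovered in 5 of 5 simulated lists. The pairs, their comparisons and the rule for the regions named were chosen with earlier results of these data known. That rule took the closest pair of each chromosome and donor segment, the 5 highest list 2 scores and the 5 widest list 2 peaks. It also took 3 pairs on either side of the limit and, of the places with most pairs, the 3 tightest. No test was run over peaks, which are not replicates. Genes, sequences and motifs are not analysed here, because no genome of the lists' build was used.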

Additional observations from a re-analysis of the deposited data

How the results depend on the processing

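A total of 89 alternative values was computed for the count of pairs and the 7 comparisons of paired with distant peaks, and 78 of them stayed within the interval of the reported value or, for the count, within 1.5 times. Settings covered the pairing rule, the score, the comparison peaks, the density window and leaving out each chromosome. That with list 2 peaks above 200 bp only was chosen after seeing the data. Asking that each peak be the other's single partner could change nothing, because every pair was already exclusive. Its values are nevertheless counted in both totals. The count was 202 with centres within 100 bp and 597 within 500 bp. It was 57 among peaks scoring strictly above the list medians, 9432 in list 1 and 7198 in list 2. Peaks at the medians are left out there, while the 75 pairs given above include them. The wider list 2 peaks kept their direction in all 11 alternatives, that fixed setting included. The difference rose to 140 bp when pairs were defined by overlap, which favours wide peaks by construction. It fell to 29 bp among peaks strictly above the list medians. The density differences there were -1.01 peaks per Mb for both lists and the score differences -205.7 in list 1 and -14.42 in list 2. Fewer peaks enter that setting, and its density counts only those peaks. A density difference of that size is a single peak in the window. The cause was not tested. The middle position turned to -0.837 percentage points when the middle was all sequence at least 10 Mb from an end. The list 2 score difference turned to 1.5 among list 2 peaks above 200 bp. The cause was not tested in either case. No replicate could be left out, since a pair needs both lists. No paired analysis was possible because the lists were made within replicate numbers and hold no value per library.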

Other observations

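Outside the 10 chromosomes, 2 pairs in unplaced sequence had centres within 250 bp, out of 46 list 1 and 43 list 2 peaks there. The mitochondrial genome, with 5 and 29 peaks, had 0 such pairs. Both counts are under 3, too few to set against the 1.9% of list 1 peaks that were paired on the 10 chromosomes.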
